A study of Mus musculus with 7 samples.

Results

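The clustered protocadherins are cell surface adhesion proteins encoded by the tandem gene clusters Pcdha, Pcdhb and Pcdhg. Their 59 gene symbols, of 24062 in the deposited counts, were chosen by symbol alone, as every name made of Pcdha, Pcdhb or Pcdhg and a further letter or digit. The Pcdha cluster gave 15 symbols, comprising 13 classed by name as alternate isoforms and the 2 C-type isoforms Pcdhac1 and Pcdhac2. The 13 include Pcdha4-g, which had no entry in RefSeq or GENCODE. The Pcdhb cluster gave 22 symbols, and the Pcdhg cluster gave 22, of which 19 were alternate isoforms and 3 were the C-type isoforms Pcdhgc3, Pcdhgc4 and Pcdhgc5. No measured value decided which genes were included, but the family was taken up with earlier results of these counts known, so its values and calls are given as a description.

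The cells were neurons of the medial preoptic area (MPA), a hypothalamic region that regulates body temperature, in acute brain slices of adult female ERα-ZsGreen transgenic mice (strain Esr1-ZsGreen) on a C57BL/6J background. The transgene labels cells that express estrogen receptor alpha, encoded by Esr1, with the green fluorescent protein ZsGreen, and every sample in both groups was ZsGreen positive. Each neuron was recorded while the slice was warmed by 5 °C, its contents were drawn into the patch pipette, and 2 neurons with like responses were pooled as 1 sample. Neurons that responded to the warming made up 4 temperature-responsive samples (TR1 to TR4), and neurons that did not made up 3 non-responsive samples (NR1 to NR3). Both groups were exposed to the warming, and the labels do not say which samples share an animal, so the p-values measure the spread between these samples.

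Each stochastically chosen promoter of a protocadherin cluster drives its own variable exon. In Pcdha and Pcdhg this exon is spliced to constant exons that all isoforms of the cluster share, whereas Pcdhb genes consist of a single exon and lack such a constant region. The proteins form cis dimers that bind identical dimers on other cells, and the mixture of isoforms gives a neuron a surface identity used in dendrite self-avoidance and axon tiling. Promoter choice depends on the insulator protein CTCF, the cohesin complex and DNA methylation, and C-type isoforms are controlled differently from the alternate ones.

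The members lie on mouse chromosome 18 (GRCm38, the assembly of build mm10), in the order Pcdha (positions 36930285 to 37188897), Pcdhb (37264998 to 37521419) and Pcdhg (37661775 to 37841873), as annotated in RefSeq and GENCODE, which held 58 of the 59 symbols. The part of a transcript not shared with another gene differed between the clusters, and this sets what a count of reads per gene can see. It was 45.1% to 51.4% of the exonic length in Pcdha isoforms, 33.2% to 61.7% in Pcdhg isoforms and 90.3% to 100% in Pcdhb genes. Reads in the shared constant exons may have been left uncounted, so the Pcdha and Pcdhg values below reflect the variable exons and understate these clusters as wholes. Of the 50-base windows in an isoform's own part, a median of 14.7% also occurred in other genes in Pcdha, against 3.48% in Pcdhb and 0.810% in Pcdhg. The exons of Pcdhb21 and Pcdhb22 overlap, and the values of both are uncertain. Pcdha4 and Pcdha4-g had 0 counts in all 7 samples, where 0 allows up to 3 counts. Since the annotation used in counting is not given and overlapping entries can remove each other's reads, these zeros do not speak to expression of Pcdha4.

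Library totals were 1914497 to 2814360 counts for TR1 to TR4 and 3309361 to 5125280 for NR1 to NR3, without overlap, so that 3 counts corresponded to 1.07 to 1.57 and to 0.585 to 0.907 CPM (counts scaled to a common library total with TMM, the trimmed mean of M-values). The number of genes detected ran the other way, at 19852 to 21177 in temperature-responsive and 17818 to 19820 in non-responsive samples. Summed markers of neurons lay at 2378 to 2798 CPM and 2189 to 2480 CPM in the respective groups, and those of oligodendrocytes (2776 to 3773 and 2355 to 2978 CPM), microglia (282 to 320 and 277 to 300 CPM) and astrocytes (1083 to 1261 and 876 to 1068 CPM) were also present in every sample. The 5 endothelial markers summed to 65.7 to 174 CPM in temperature-responsive and 15.2 to 41.6 CPM in non-responsive samples. The 1122 olfactory receptor genes, which brain cells mostly do not use, summed to 345 to 822 and 45.0 to 250 CPM, and like the astrocyte and endothelial markers they did not overlap between the groups. The astrocyte sums nearly touched. In the edgeR comparison described below, 2 of the 5 astrocyte markers passed as higher and 1 as lower in temperature-responsive samples. For the 5 endothelial markers these numbers were 4 and 0. The part of these markers and of the olfactory receptor genes in the results below was not tested, and fewer cells of a type and less RNA per cell cannot be told apart in such samples. Esr1 itself had 10 to 27 counts in each sample. Although the study's methods give female mice, the Y-linked gene Ddx3y had 684 to 1150 counts in every sample and Xist had 2 to 14, in both groups.

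All 3 clusters were detected in every sample, and Pcdhb supplied most of the counts. The members together had 720 to 970 counts per sample in the temperature-responsive group and 912 to 1334 in the non-responsive group. Pcdhb made up 84.6%, 80.3%, 82.4% and 78.6% of them in TR1 to TR4 and 75.4%, 75.6% and 66.2% in NR1 to NR3. Thus the Pcdhb share was higher in each temperature-responsive sample than in each non-responsive sample. Per kilobase of own exonic sequence, the mean level of Pcdhb was 3.05 ± 0.363 CPM per kb (SD, n = 4) for the temperature-responsive group and 2.08 ± 0.161 (SD, n = 3) for the non-responsive group. The corresponding levels were 0.779 ± 0.235 and 0.795 ± 0.239 CPM per kb for Pcdhg and 0.519 ± 0.0696 and 0.743 ± 0.0607 CPM per kb for Pcdha. Pcdhb thus had the highest counted level per own length as well. Read coverage along the transcripts was not tested, so this ranking is of counted reads.

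**Figure D1:**
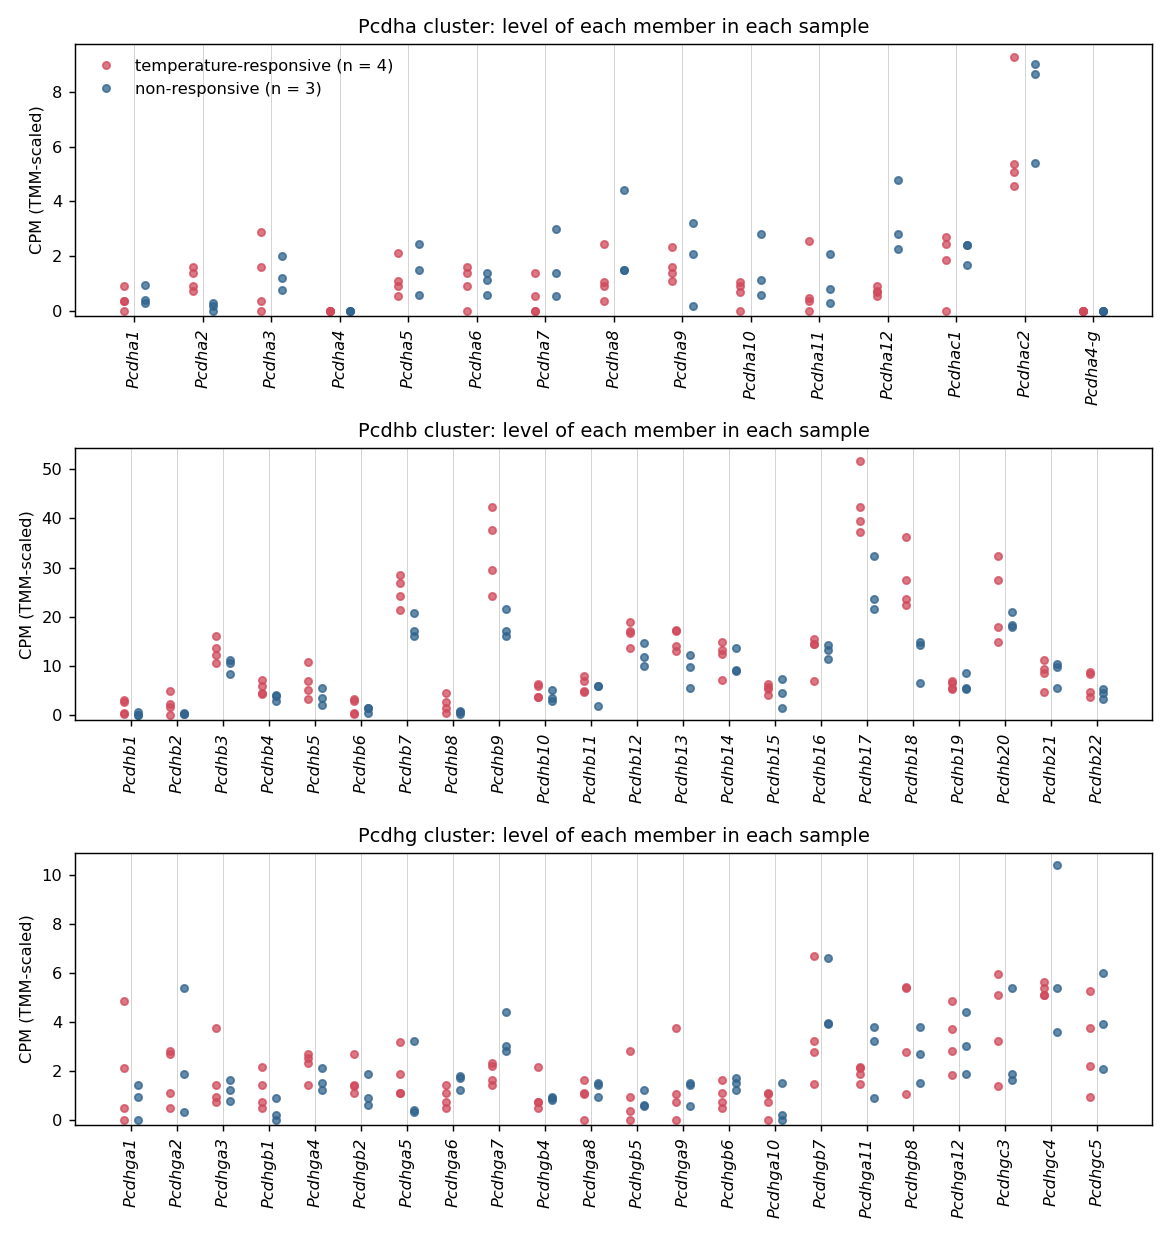
Level of each of the 59 members in each sample, in TMM-scaled CPM, with 1 panel per cluster and the members ordered along the chromosome (Pcdha4-g, which has no annotated position, stands last in its panel). Each point is 1 sample (4 temperature-responsive, 3 non-responsive); Pcdhb isoforms reach 51.7 CPM, whereas no Pcdha or Pcdhg isoform exceeds 10.4 CPM.

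The summed level of Pcdhb was higher in temperature-responsive neurons, and that of Pcdha was lower. Pcdhb summed to 283, 324, 244 and 268 CPM in TR1 to TR4 and to 206, 189 and 177 CPM in NR1 to NR3. The groups did not overlap, and the means of 280 ± 33.3 CPM (SD, n = 4) and 191 ± 14.7 CPM (SD, n = 3) had a ratio of 1.47. The Pcdhb sums rest on 601 to 762 counts in temperature-responsive and 688 to 1005 in non-responsive samples. Their difference is thus one of counts relative to library totals. Pcdha summed to 20.4, 18.3, 14.9 and 19.7 CPM in TR1 to TR4 and to 24.0, 26.5 and 28.2 CPM in NR1 to NR3. These groups did not overlap either, with means of 18.3 ± 2.46 CPM (SD, n = 4) and 26.2 ± 2.14 CPM (SD, n = 3) and a ratio of 0.698. Pcdhg summed to 31.1, 60.8, 37.4 and 53.4 CPM in TR1 to TR4 and to 43.1, 34.6 and 62.0 CPM in NR1 to NR3. Here both groups spanned nearly the same range, and the ratio of the means was 0.98. No test is attached to these sums, because the members were taken up with the results known.

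**Figure D2:**
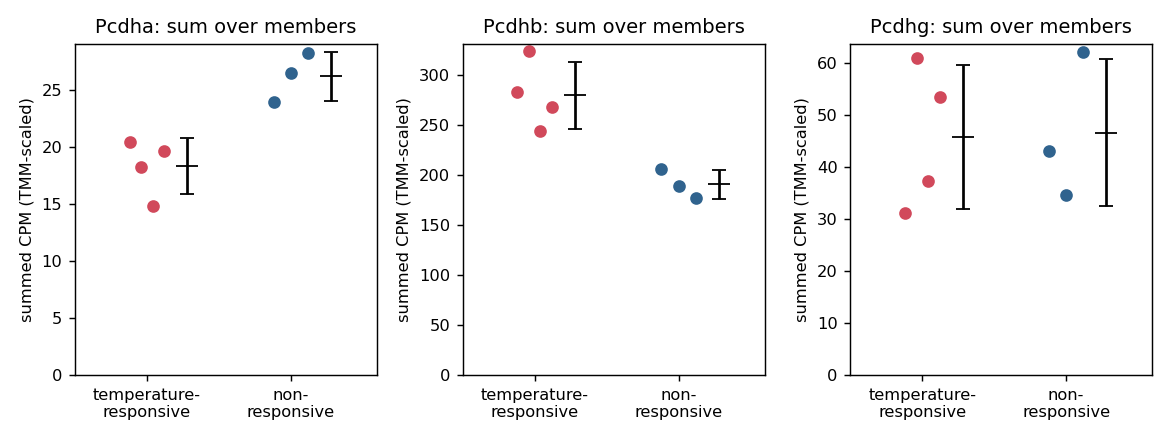
Summed TMM-scaled CPM of the members of each cluster in each sample (points), with the mean and SD of each group (black bars; 4 temperature-responsive and 3 non-responsive samples). The Pcdhb sums lie at 244 to 324 against 177 to 206 CPM and the Pcdha sums at 14.9 to 20.4 against 24.0 to 28.2 CPM, without overlap, whereas the Pcdhg sums overlap.

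The ratio of 1 cluster to another within a sample does not depend on the normalization. There were 13.8, 17.7, 16.4 and 13.6 Pcdhb counts per Pcdha count in TR1 to TR4, against 8.60, 7.13 and 6.26 in NR1 to NR3. The mean ratio was 15.4 ± 1.99 (SD, n = 4) against 7.33 ± 1.18 (SD, n = 3), and the groups did not overlap. Pcdhb counts per Pcdhg count did overlap, at 5.01 to 9.09 and 2.85 to 5.46. The difference in Pcdha rested in part on 1 isoform: without Pcdha12, the sums were 14.2 to 19.5 CPM in temperature-responsive and 19.2 to 25.4 CPM in non-responsive samples, which overlapped. The difference in Pcdhb did not rest on the isoforms that passed the test alone, since the other 18 summed to 139 to 189 and 125 to 126 CPM, without overlap.

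GC content is a measured property that moved with these clusters and with the comparison. Across the 13745 genes with a sequence, log2 fold changes were negatively related to the GC content of the transcripts (Spearman's rho = -0.342, a description across genes, which are not independent replicates). The own exonic part of Pcdhb genes had a median GC content of 46.1%, against 53.1% for Pcdha and 52.5% for Pcdhg. Over whole transcripts, constant exons included, the medians were 46.0% for Pcdhb, 47.3% for Pcdha and 53.0% for Pcdhg, against 49.8% for all genes tested. Pcdha thus lay above the typical gene by its own part and below it by its transcripts, and an adjustment for transcript GC content moves it with the GC-poor genes. After adjustment of the CPM for transcript GC content, the Pcdhb means were 265 and 204 CPM, a ratio of 1.30, and the Pcdha means 17.8 and 27.4 CPM, a ratio of 0.648. Neither cluster's groups overlapped after this adjustment.

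To ask which isoforms differed between temperature-responsive and non-responsive neurons, the counts of each gene were compared with edgeR. Of the 59 members, 27 had at least 10 counts in at least 3 samples and were tested, comprising 18 Pcdhb, 7 Pcdhg and 2 Pcdha isoforms. At an adjusted p threshold of 0.05, 5 differed, of which 4 were higher and 1, Pcdha12, was lower in temperature-responsive neurons. That is 18.5% of the members tested, whereas 30.0% of all 14407 genes tested passed the threshold, 15.1% higher and 14.9% lower. The members were thus not called more often than genes at large. Here and for the lists below, the share over all genes was not matched for count level. The median log2 fold change was 0.37 over the 27 members and 0.44 over the 18 Pcdhb members, against 0.0070 over all genes tested. Of the 18 Pcdhb members tested, 16 had a positive fold change, including all 4 that rose. Levels of 8 of the 27 members (29.6%) did not overlap between the groups, against 35.4% of all genes tested. Of these 27 members, 3, Pcdha12 and Pcdhga7 among them, passed the filter on low counts only through the non-responsive samples, which had the larger totals.

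**Figure D3:**
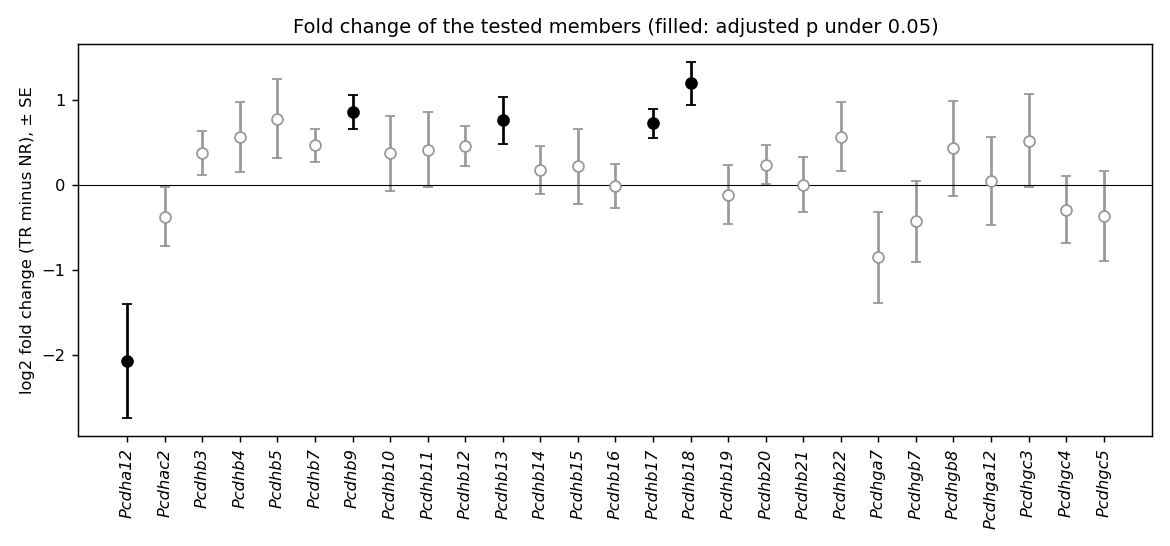
Log2 fold change of each tested member (temperature-responsive minus non-responsive, edgeR) with its SE, in order along the chromosome. Filled points passed the adjusted p threshold of 0.05; they are Pcdha12, below 0, and Pcdhb9, Pcdhb13, Pcdhb17 and Pcdhb18, above 0.

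The 4 isoforms that rose in temperature-responsive neurons, Pcdhb9, Pcdhb13, Pcdhb17 and Pcdhb18, are all single-exon cadherin-type adhesion proteins. The largest change was that of Pcdhb18 (chromosome 18, 37489465 to 37494503), which lies next to Pcdhb17. It measured 36.2, 27.5, 23.6 and 22.5 CPM in TR1 to TR4 and 14.4, 14.9 and 6.61 CPM in NR1 to NR3. All temperature-responsive samples were above all non-responsive samples, with NR3 lowest. The log2 fold change was 1.20 ± 0.25 (SE; edgeR adjusted p = 0.00141).

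Pcdhb9 (37400855 to 37403909) measured 42.3, 37.7, 24.3 and 29.5 CPM in TR1 to TR4 and 21.6, 16.2 and 17.2 CPM in NR1 to NR3. The groups did not overlap, although TR3 and NR1 lay close together. Its log2 fold change was 0.87 ± 0.20 (SE; edgeR adjusted p = 0.00274). Pcdhb17 (37485021 to 37488290), the most abundant isoform of the family in CPM, measured 42.3, 51.7, 39.6 and 37.2 CPM in TR1 to TR4 and 32.4, 23.7 and 21.6 CPM in NR1 to NR3. These groups were also separate, and the log2 fold change was 0.73 ± 0.17 (SE; edgeR adjusted p = 0.00337). These values rest on 91 to 109 counts of Pcdhb17 in temperature-responsive and 108 to 126 in non-responsive samples. The counts themselves were thus not higher in temperature-responsive samples, and the difference is one of counts relative to library totals, which were larger in the non-responsive group. For Pcdhb9 the counts were 67 to 91 in temperature-responsive and 72 to 86 in non-responsive samples. They were 28 to 48 and 28 to 52 for Pcdhb13, and 51 to 78 and 33 to 79 for Pcdhb18. The counts of these isoforms thus overlapped between the groups as well.

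Pcdhb13 (37442517 to 37446209) measured 13.0, 17.2, 17.4 and 14.1 CPM in TR1 to TR4 and 12.3, 9.78 and 5.60 CPM in NR1 to NR3. TR1 and NR1 were nearly equal, and the log2 fold change of 0.76 ± 0.28 (SE) was close to the threshold (edgeR adjusted p = 0.0385). This call was lost under 11 of the 19 alternative settings, among them those without TR2, TR3, TR4, NR2 or NR3 (edgeR adjusted p = 0.0982, 0.0917, 0.0508, 0.067 and 0.205), whereas those of Pcdhb9, Pcdhb17 and Pcdhb18 were lost under 1, in which a covariate held each sample's number of detected genes. In that fit the adjusted p was 0.296 for Pcdhb18, 0.284 for Pcdhb9 and 0.596 for Pcdhb17, and 1 of all genes tested passed. The log2 fold change there was 0.94 ± 0.41 for Pcdhb18, 0.78 ± 0.33 for Pcdhb9, 0.35 ± 0.27 for Pcdhb17 and 0.095 ± 0.42 for Pcdhb13 (SE), so the first pair kept most of its size with a wider error and the second pair did not. The numbers of genes detected did not overlap between the groups. That fit therefore cannot separate them from the group, and no conclusion is drawn from these sizes.

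The other 14 Pcdhb members tested had log2 fold changes from -0.11 to 0.78 and did not pass the threshold. Closest to it was Pcdhb7, the third most abundant isoform, which measured 26.9, 28.5, 21.4 and 24.2 CPM in TR1 to TR4 and 16.2, 17.1 and 20.8 CPM in NR1 to NR3. TR3 exceeded NR3 only slightly, and the log2 fold change was 0.47 ± 0.19 (SE; edgeR adjusted p = 0.0681). With upper quartile normalization it passed (log2 fold change 0.54, edgeR adjusted p = 0.0398), which made 6 members called and 5 higher. Pcdhb4, chosen after its values were seen, also had groups that did not overlap, at 4.31 to 7.26 and 3.00 to 4.2 CPM. The remaining 4 isoforms, Pcdhb1, Pcdhb2, Pcdhb6 and Pcdhb8, had at most 13 counts in any sample and were not tested.

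Pcdha12 (37020230 to 37187657), an alternate alpha isoform, was the member that was lower in temperature-responsive neurons. It had 2, 1, 2 and 2 counts in TR1 to TR4 and 16, 12 and 14 counts in NR1 to NR3. On the CPM scale it measured 0.929, 0.538, 0.726 and 0.703 against 4.79, 2.26 and 2.80 CPM. No temperature-responsive sample exceeded the floor of 3 counts, although each sample had at least 1. From the summed counts of 7 and 42, the level in non-responsive neurons was 4.22 times that in temperature-responsive neurons, with an exact (Clopper-Pearson) 95% interval of 1.88 to 11.1 that covers counting error only. Pcdha12 passed the filter on low counts through the non-responsive samples alone, where it is high, so its call (edgeR adjusted p = 0.0212) is given as a description. The call was lost with the replicate number as a block, with that block and a GC offset, and with the detected-gene covariate (edgeR adjusted p = 0.0559, 0.0552 and 0.213). The fitted log2 fold changes there were -2.08, -2.16 and -2.60, against -2.08 in the fit of all 7 samples without these terms. Both block fits used replicates 1 to 3 only and so left out TR4. Leaving out TR4 without a block gave -2.05 (edgeR adjusted p = 0.0433). Leaving out any of the 3 non-responsive samples removed Pcdha12 from the genes tested. Of its own exonic windows, 13.3% also occur in other genes, so its count is uncertain.

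The alternate Pcdha isoforms apart from Pcdha12 had at most 22 counts in any sample, and none was tested. Among them Pcdha2, chosen after its values were seen, ran opposite to Pcdha12, with 2, 3, 2 and 4 counts in TR1 to TR4 and 1, 1 and 0 in NR1 to NR3. These counts are at or near the floor and give no fold change.

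The C-type isoforms, which are transcribed from promoters at the ends of their clusters and are less subject to stochastic choice, did not pass the threshold where they were tested. Pcdhac2 was the leading alpha isoform in all 7 samples, with 22.5% to 45.5% of the Pcdha counts. It measured 9.29, 5.38, 5.08 and 4.57 CPM in TR1 to TR4 and 5.39, 8.65 and 9.01 CPM in NR1 to NR3. The groups overlapped through TR1 alone, and the log2 fold change was -0.37 ± 0.35 (SE; edgeR adjusted p = 0.448). Pcdhac1 had 4, 5, 0 and 7 counts in TR1 to TR4 and 8, 9 and 12 in NR1 to NR3, too few for the test.

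Pcdhgc4, which is known to be required for the survival of interneurons, was the most abundant gamma isoform. It measured 5.11, 5.38, 5.08 and 5.62 CPM in TR1 to TR4, a narrow range, and 5.39, 3.57 and 10.4 CPM in NR1 to NR3. Pcdhgc3 measured 1.39, 3.23, 5.08 and 5.97 CPM and 5.39, 1.88 and 1.6 CPM in the same order. Pcdhgc5 measured 0.929, 3.77, 2.18 and 5.27 CPM and 3.89, 2.07 and 6.0 CPM. For all 3 genes the groups overlapped, and the log2 fold changes were -0.29 ± 0.40 for Pcdhgc4, 0.52 ± 0.55 for Pcdhgc3 and -0.36 ± 0.53 for Pcdhgc5 (SE; edgeR adjusted p = 0.612, 0.499 and 0.637). With each sample left out in turn, that of Pcdhgc3 ranged from 0.23 to 1.20. With such errors, changes of about the size seen for Pcdhb9 were not detectable at this depth.

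Of the alternate gamma isoforms, 4 were tested and none passed the threshold. Pcdhgb7, the most abundant of them, had a log2 fold change of -0.43 ± 0.48 (SE; edgeR adjusted p = 0.528), which ranged from -0.99 to -0.12 with each sample left out in turn. Its levels were 2.79, 3.23, 1.45 and 6.68 CPM in TR1 to TR4 and 3.89, 3.95 and 6.61 CPM in NR1 to NR3. Pcdhga8 and Pcdhgb6 had at most 3 counts in every temperature-responsive sample and at least 5 in every non-responsive sample, and the latter had the larger totals. From summed counts relative to the TMM-scaled totals, the level in non-responsive neurons was 1.33 times that in temperature-responsive neurons for Pcdhga8 (exact 95% interval 0.561 to 3.39). For Pcdhgb6 it was 1.56 times (0.681 to 3.90). These intervals leave the direction and size of a difference undecided. Pcdhga7, chosen after its values were seen, was the gamma isoform whose groups did not overlap, at 1.41 to 2.32 and 2.82 to 4.40 CPM. Its counts were 5, 3, 6 and 4 in TR1 to TR4 and 10, 15 and 22 in NR1 to NR3, so it was tested only through the non-responsive samples and its separation is a description.

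The number of isoforms detected is the other readout of protocadherin choice, and it depends on depth. Counting isoforms with at least 3 counts, Pcdha had 3, 6, 5 and 8 of 15 symbols (Pcdha4-g included) in TR1 to TR4 and 8, 12 and 10 in NR1 to NR3. Pcdhb had 19, 22, 19 and 22 of 22 in TR1 to TR4 and 19, 21 and 19 in NR1 to NR3, so nearly the whole beta cluster was seen in every pool of 2 neurons. Pcdhg had 10, 18, 14 and 20 of 22 in TR1 to TR4 and 18, 19 and 20 in NR1 to NR3. Across the family, 28 members reached 3 counts in all 7 samples, of which 18 were Pcdhb, 9 Pcdhg and 1, Pcdhac2, was Pcdha.

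Because the non-responsive samples had larger totals, the number expected at the smallest total of 1914497 counts was computed from the hypergeometric distribution. At that depth Pcdha had 2.86 to 6.30 isoforms in temperature-responsive and 6.53 to 7.24 in non-responsive samples. The difference of the means shrank from -4.50 isoforms as deposited to -2.23, while the groups no longer touched. For Pcdhb the expected numbers were 18.6 to 22.0 and 18.1 to 18.3, also without overlap, and the difference of the means was 2.11. For Pcdhg they were 8.91 to 18 and 11.7 to 14.0, and the difference was 0.121. The separation in Pcdha was narrow, with TR4 at 6.30 and NR1 at 6.53. TR2 and TR4, which held 22 Pcdhb isoforms, were also the samples with the most Pcdhg isoforms in their group. They had the most genes detected of all samples as well, at 21177 and 21125. The number of all genes expected at the common depth was not computed, and the part of gene detection at large in these isoform numbers was not tested.

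**Figure D4:**
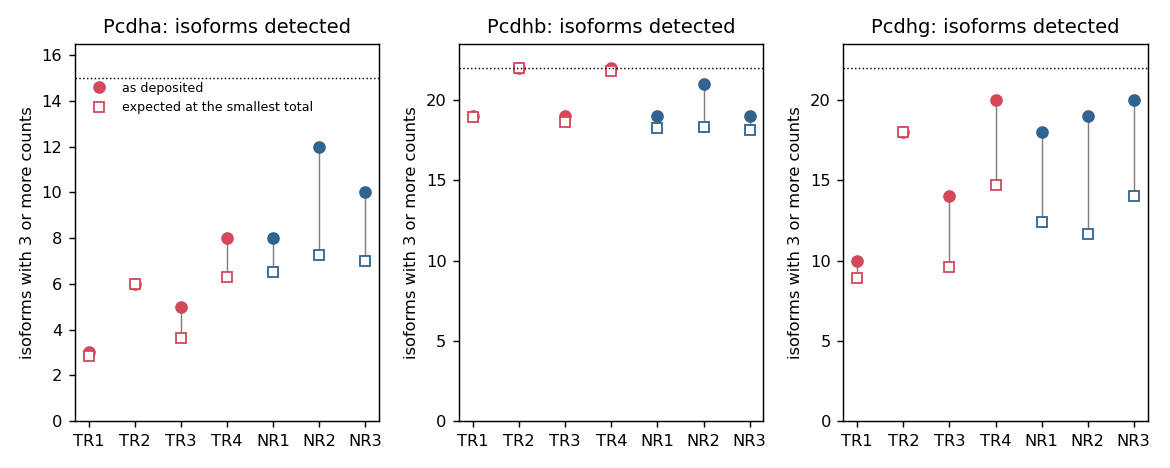
Number of isoforms of each cluster with at least 3 counts in each sample (TR, temperature-responsive; NR, non-responsive), as deposited (filled circles) and as computed for the smallest library total (open squares); the dotted line marks the number of symbols in the cluster. At the common depth Pcdha lies at 2.86 to 6.30 in temperature-responsive and 6.53 to 7.24 in non-responsive samples, and Pcdhb at 18.6 to 22.0 and 18.1 to 18.3.

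The evenness of isoform use overlapped between the groups in each cluster. The effective number of isoforms (the inverse Simpson index, which equals the number of isoforms when all are equally abundant) was 10.9 to 14.3 in temperature-responsive and 13.0 to 13.9 in non-responsive samples for Pcdhb. It was 4.44 to 9.57 and 6.30 to 8.0 for Pcdha, and 13.8 to 20.1 and 12.8 to 16.4 for Pcdhg. A pool of 2 neurons thus held counts from many isoforms of each cluster, and since RNA of other cell types was also present, these numbers do not give the isoforms of a single neuron.

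Within the Pcdhb cluster, most isoforms took shares of its counts that overlapped between the groups. Pcdhb17 led in every sample, with 12.2% to 16.2% of the Pcdhb counts (level with Pcdhb9 in TR1), and Pcdhb9 and Pcdhb7 came next by mean level over the 7 samples. Isoform profiles were correlated at r = 0.907 to 0.964 within the temperature-responsive group (6 pairs), 0.883 to 0.917 within the non-responsive group (3 pairs) and 0.785 to 0.959 between groups (12 pairs), over 22 isoforms that share libraries and gene lengths, so these coefficients are descriptive. As a share of Pcdhb counts, 20 of the 22 isoforms overlapped between the groups. The exceptions were Pcdhb18, with 8.40% to 12.8% in temperature-responsive and 3.74% to 7.86% in non-responsive samples, and Pcdhb19, chosen after its values were seen, with 2.10% to 2.30% and 2.62% to 4.87%. The shares of Pcdhb9 (9.96% to 14.9% and 8.56% to 10.5%), Pcdhb13 (4.60% to 7.13% and 3.17% to 5.96%) and Pcdhb17 (13.9% to 16.2% and 12.2% to 15.7%) overlapped.

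**Figure D5:**
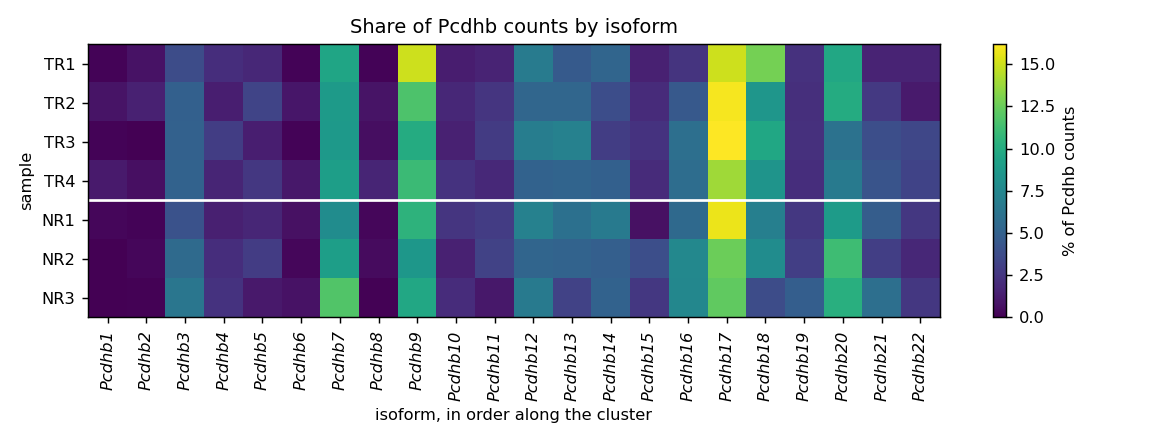
Share of each Pcdhb isoform in the Pcdhb counts of each sample, in percent (colour), with isoforms in order along the cluster and the white line between temperature-responsive (TR) and non-responsive (NR) samples. Pcdhb17 takes 12.2% to 16.2% in every sample, and Pcdhb18 takes 8.40% to 12.8% in temperature-responsive and 3.74% to 7.86% in non-responsive samples.

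Genes that act on protocadherin promoters were called about as often as genes at large. Of 17 regulators tested, 4 were higher and 1 was lower in temperature-responsive neurons (29.4%, against 30.0% of all genes tested). The cohesin subunits Stag2 (log2 fold change 0.63 ± 0.10) and Rad21 (0.56 ± 0.11) were higher, whereas Smc1a, another subunit of the same ring, was lower (-0.44 ± 0.11; SE; edgeR adjusted p = 0.000214, 0.000666 and 0.00449). With a GC offset the log2 fold changes of Stag2 and Rad21 shrank to 0.28 and 0.36 and still passed (edgeR adjusted p = 0.0497 and 0.01). Stag2 measured 136 to 169 CPM in temperature-responsive and 94.1 to 108 CPM in non-responsive samples. The median log2 fold change over the list was -0.00075.

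Of 19 proteins that bind or process protocadherins, or act in the pathways below them, 6 were higher and 4 were lower in temperature-responsive neurons (52.6%, against 30.0% of all genes tested). The share among genes with like counts was not computed. Pdcd10, which binds the alpha and gamma constant region, was higher (log2 fold change 0.72 ± 0.14), as was Abi1, a subunit of the WAVE actin regulatory complex (0.55 ± 0.10). Ptk2b, a focal adhesion kinase that protocadherins inhibit, was lower (-0.53 ± 0.11). The edgeR adjusted p was 0.000884, 0.000567 and 0.00125, respectively. With a GC offset Pdcd10 no longer passed the threshold (0.32, edgeR adjusted p = 0.0782) and Abi1 shrank to 0.27 (edgeR adjusted p = 0.0383). The median over the list was 0.11.

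The non-clustered protocadherins and the Celsr cadherins are related adhesion proteins encoded outside the clusters. All 15 were tested, and 7 were higher and 1 was lower in temperature-responsive neurons (53.3%, against 30.0% of all genes tested). Pcdh12, known as a cadherin of endothelial cells, had the largest change, from 0.188 to 3.00 CPM in non-responsive samples to 1.81 to 6.46 CPM in temperature-responsive samples (log2 fold change 2.01 ± 0.72, SE; edgeR adjusted p = 0.0364). These levels overlapped and rest on 1 to 15 counts, and without NR2 or NR3 the gene did not pass the threshold (edgeR adjusted p = 0.156 and 0.134). The endothelial markers were also higher in temperature-responsive samples, and their part in this result was not tested. Celsr1 rose (1.62 ± 0.39) and Celsr2, a planar polarity cadherin of neurons, fell (-0.65 ± 0.12; SE; edgeR adjusted p = 0.00379 and 0.000485). The median over the list was 0.30.

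The genes next to or between the clusters were examined to set the members beside their neighbours. Of 6 tested, 3 passed the threshold (50%, against 30.0% of all genes tested). Arap3 (log2 fold change 1.56 ± 0.34) and Taf7 (0.53 ± 0.13) were higher and Rell2 (-1.47 ± 0.35) was lower (SE; edgeR adjusted p = 0.0016, 0.00441 and 0.00342). These values rest on 13 to 32 counts per sample for Arap3 and 4 to 57 for Rell2. With a GC offset Taf7 no longer passed (edgeR adjusted p = 0.248). Zmat2, which precedes the Pcdha cluster, had a log2 fold change of 0.14 ± 0.10, and Hdac3 and Fchsd1, which lie beyond Pcdhg, had values of -0.03 ± 0.11 and 0.26 ± 0.27 (SE; edgeR adjusted p = 0.272, 0.842 and 0.506). Vaultrc5 and Slc25a2 had too few counts for the test.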

How the data were processed

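RNA of 7 samples of 2 patched neurons each was amplified with a SMART-seq kit and sequenced in a single lane. The authors aligned reads to mm10 with STAR 2.6.0, used RmDup against duplicate reads and deposited raw counts per gene symbol from htseq-count (HTSeq 0.9.1); FastQC 0.72 is also listed in the submitters' processing notes. The annotation, strandedness and treatment of reads in overlapping genes are not given in the sources used here, so shared exons are uncertain, and in the absence of molecular identifiers duplicate removal may have discarded distinct molecules. Totals were 1914497 to 5125280 counts, and intervals and floors (3 counts) cover counting error only.

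Samples were grouped by their labels. The 14407 genes with 10 or more counts in 3 or more samples entered edgeR 4.0.16 (R 4.3.3; quasi-likelihood, robust, TMM, two-sided, Benjamini-Hochberg adjusted over all genes tested, threshold 0.05). SEs were derived from the F statistic. Sums, isoform numbers and shares were described without a test. RefSeq and GENCODE M21, on the assembly of the deposited counts, gave positions and GC content, the latter for 95.4% of the genes tested. Alternatives were DESeq2 1.42.0, limma 3.58.1, other normalizations and filters, drawing all samples down to the smallest total, a detected-gene covariate, a GC offset (mgcv 1.9.3), a replicate block and leaving out each sample. The block was fitted on replicates 1 to 3 only, so TR4 was left out there.

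The members and lists were chosen with earlier results of these data known. Members named were those past the threshold, the C-type isoforms, the 3 most abundant of each cluster, and those with at most 3 counts in every sample of 1 group and more in every sample of the other. List genes named were those with the largest changes in either direction among genes past the threshold and all neighbouring genes tested. A gene that this rule would name is not reported here. No sequence is printed.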

Additional observations from a re-analysis of the deposited data

How the results depend on the processing

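Pcdhb9, Pcdhb17 and Pcdhb18 kept their direction and passed the threshold under 18 of 19 alternatives. With each sample's number of detected genes in the model as a covariate, the 5 members past the threshold became 0 by edgeR (3 at an unadjusted p under 0.05), the 4 higher ones became 0, and each of the 4 lists had 0. Whole-genome calls fell from 4327 to 1. Values of that covariate did not overlap between the groups, so its effect and that of the group cannot be told apart. The 1 lower member, Pcdha12, became 0 with that covariate, with at least 10 counts in every sample, with samples drawn down to the smallest total, with the replicate block (0) and with the block and a GC offset (0, leaving 3 members called). In the drawn-down and stricter fits it was not tested. Without each sample in turn, members called ranged from 3 to 5 (3 without NR2 or NR3), higher members from 3 to 4, and lower members from 0 to 1. Calls over all genes tested moved as well, from 2620 of 14177 without NR3 and 2986 of 14117 without NR2 to 4583 of 14216 without NR1. List calls ranged from 3 to 5 for the regulators (3 without TR1, TR3, NR2 or NR3), from 6 to 10 for the partners (6 without NR3) and from 5 to 9 for the non-clustered genes (5 without TR2 or NR2). Drawn down, the regulators gave 3 and the non-clustered genes 5, and a GC offset left 6 partners. Over all genes tested, 3121 of 13295 passed drawn down and 3714 of 14407 with the GC offset.

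The log2 fold change changed sign with the covariate for Pcdhac2 (0.42), Pcdhgc3 (-0.95), Pcdhgc4 (0.43), Pcdh12 (-0.032) and Fchsd1 (-0.31), drawn down for Pcdhac2 (0.65), and without NR3 for Pcdhgc4 (0.27, range over samples left out -0.60 to 0.27) and Pcdhgc5 (0.10, range -0.81 to 0.10). That of Hdac3, near 0, turned to 0.032 with upper quartile scaling, 0.025 drawn down, 0.0080 with the covariate and 0.046 with the replicate block, and ranged from -0.12 to 0.045 over samples left out (above 0 without TR4, NR1 or NR3). The cause was not tested.

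The difference in summed CPM (temperature-responsive minus non-responsive) was -5.35 for Pcdha and 35.4 for Pcdhb without members past the threshold, and 60.7 for Pcdhb after GC adjustment, against -7.91 and 89.0. The difference in isoforms detected was -1.67 for Pcdha with 1 or more counts, and -2.23 for Pcdha and 0.121 for Pcdhg at the smallest total. Without either group's samples in turn the Pcdha isoform difference ranged from -5.50 to -3.50. The block with a GC offset, the GC-adjusted CPM and the sums without called members were chosen after seeing the data.

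Samples that share a number hold different neurons. Their deviations correlated at r = -0.128, -0.0618 and 0.0316, within the -0.170 to 0.222 of samples with different numbers. So few pairs cannot show whether samples with the same number share an animal, and no conclusion on pairing is drawn. With the replicate block, fitted without TR4 on 14073 genes, 4 members and 4120 genes passed. Without TR4 and without a block, 4 members and 3859 genes passed. Depth limits the Pcdha and Pcdhg isoforms most, with 13 and 15 of them untested.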
